A study of Mus musculus with 14 samples.

Results

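The serotonin receptor genes examined in cortex were Htr1a, Htr1b, Htr1d, Htr1f, Htr2a, Htr2c, Htr3a, Htr4, Htr5a and Htr7, chosen by their symbols and not by their measured values. All 10 were found among the 34193 genes of the deposited table, and all 10 were among the 13815 genes that passed the filter on low counts. RNA from the cortex of 14 C57BL/6J mice aged 8 weeks was compared, 7 with a heterozygous knockout of Dnmt3a, which encodes a DNA methyltransferase, and 7 littermates without it, called wild type. Both genotypes comprised 4 females and 3 males, no group received a treatment, and the labels name neither the deleted part of Dnmt3a nor a driver that limits the deletion to some cells. Sample titles begin with 1 of 6 numbers, called title prefixes here, and each prefix holds animals of both genotypes and of 1 sex. Prefixes 046, 047, 048 and 139 are called set A (8 animals) and prefixes 119 and 141 set B (6 animals). This split was known from an earlier look at these data, and the labels do not say what a prefix marks.

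Serotonin is made by neurons of the raphe nuclei of the brainstem, whose axons reach the whole cortex, and it acts there through a family of receptors that differ in what they couple to. Htr1a, Htr1b, Htr1d, Htr1f and Htr5a encode receptors that couple to inhibitory G proteins and lower cyclic AMP. Htr2a and Htr2c encode receptors that couple to Gq and phospholipase C, and Htr4 and Htr7 encode receptors that raise cyclic AMP. Htr3a encodes a subunit of a ligand-gated cation channel and is known as a marker of a class of cortical interneurons. Htr2a is the main cortical target of classic hallucinogens.

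Promoter windows of 300 bases were taken from RefSeq (GRCm38.p6), from 250 bases before the transcript start to 50 after it. Windows of 8 of the 10 genes were used. None was at hand for Htr3a, and none that was usable for Htr4. Dnmt3a acts on cytosines, and those in CpG dinucleotides (the letters CG, which read the same on both strands) are given in capitals. Cytosines outside CpGs were not counted or marked. The windows of Htr2a (chr14:74640624-74640923, plus strand), Htr2c (chrX:146962263-146962562, plus strand) and Htr5a (chr5:27841697-27841996, plus strand) are shown, since the first pair had the smallest p by genotype in each direction and Htr5a differed between the sets of prefixes.
Htr2a: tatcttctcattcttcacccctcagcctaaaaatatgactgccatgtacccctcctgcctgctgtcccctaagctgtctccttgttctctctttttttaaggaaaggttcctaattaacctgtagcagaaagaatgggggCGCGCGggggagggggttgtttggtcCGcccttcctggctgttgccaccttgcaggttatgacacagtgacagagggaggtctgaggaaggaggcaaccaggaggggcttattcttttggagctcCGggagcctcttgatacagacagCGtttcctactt
Htr2c: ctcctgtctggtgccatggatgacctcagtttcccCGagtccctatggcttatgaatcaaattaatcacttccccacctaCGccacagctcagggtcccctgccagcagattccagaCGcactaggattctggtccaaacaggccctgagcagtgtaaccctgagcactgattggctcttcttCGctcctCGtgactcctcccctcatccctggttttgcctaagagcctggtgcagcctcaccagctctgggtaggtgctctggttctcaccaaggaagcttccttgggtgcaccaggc
Htr5a: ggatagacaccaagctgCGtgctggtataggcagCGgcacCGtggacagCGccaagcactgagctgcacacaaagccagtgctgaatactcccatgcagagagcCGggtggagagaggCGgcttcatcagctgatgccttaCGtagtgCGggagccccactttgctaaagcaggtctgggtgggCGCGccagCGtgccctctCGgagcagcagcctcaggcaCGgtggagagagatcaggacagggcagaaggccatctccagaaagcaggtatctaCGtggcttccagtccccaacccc
The Htr2a window held 6 CpGs, the Htr2c window 5 and the Htr5a window 14, where the median of all 32851 windows was 7. Of all windows, 56.4% held at least as many as Htr2a, 62.0% at least as many as Htr2c and 36.3% at least as many as Htr5a. Of the 8 genes, Htr7 had the richest window, with 46 CpGs, a number reached by 1.65% of windows. Htr1a had 7, Htr1b 11 and Htr1f 13, and Htr1d had 2 windows with 7 and 28. No methylation was measured in the deposited table, so these counts describe the sequence alone.

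Receptor levels were compared per length, as CPM (a gene's reads scaled to library size, so that values compare between animals) divided by kilobases of merged exons. Htr2a was the most abundant at 8.06 ± 1.67 CPM per kb (SD, n = 14 animals), followed by Htr5a at 6.43 ± 1.19, Htr1a at 6.32 ± 0.916 and Htr2c at 4.60 ± 0.784. Htr7 stood at 3.55 ± 0.571 CPM per kb, Htr1f at 2.20 ± 0.322 and Htr3a at 2.20 ± 0.436. The lowest levels per kb were 1.17 ± 0.255 for Htr1b, 0.617 ± 0.105 for Htr4 and 0.538 ± 0.245 for Htr1d.

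Each gene's range over the animals overlapped that of the next in this order. Htr7 was above Htr1f, and Htr3a above Htr1b, in 14 of 14 animals, and Htr2a was above Htr5a in 13. Htr5a was above Htr1a in 6 animals, Htr1f above Htr3a in 8 and Htr4 above Htr1d in 9, so these neighbours did not differ beyond their spread. Of all reads on the 10 genes in an animal, Htr2a took 24.5% on average, Htr2c 23.4%, Htr5a 18.8% and Htr1a 15.5%. Htr1d was the most variable, with a coefficient of variation of 45.6% against 14.5% to 21.7% for the others, and rested on 5 to 38 reads per animal. Exon lengths came from GENCODE M21, an annotation of another build than the counts, so a different exon model would shift a gene along this scale. The order rests on exon length: per length of the whole gene, Htr1a ranked 1, Htr5a 2, Htr1b 3 and Htr2a 4.

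**Figure D1:**
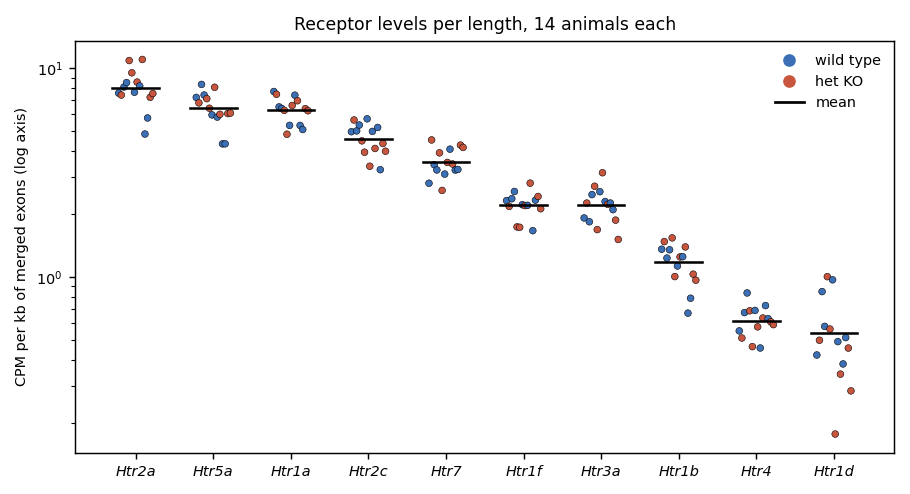
Level of each receptor gene in CPM per kb of merged exons on a log axis, 1 point per animal (14 each, coloured by genotype), with a line at the mean. Levels ran from 8.06 CPM per kb for Htr2a to 0.538 for Htr1d, with overlapping ranges between neighbours.

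The targeted gene was checked first. Dnmt3a lay between 124 and 164 CPM in wild-type animals and between 84.3 and 118 CPM in heterozygotes, without overlap (log2 fold change -0.57, adjusted p = 0.00774 with the quasi-likelihood F test of edgeR). Slc17a7, which encodes the vesicular glutamate transporter of cortical excitatory neurons, was at 1054 to 1642 CPM over all animals. Slc6a4, the serotonin transporter gene that defines serotonin neurons, was nearly absent, with 5 reads over the 14 animals together. Tph2, which encodes the serotonin-synthesising enzyme of neurons, was low, with 11 to 31 reads per animal, but passed the filter on low counts. Drd1a, a dopamine receptor gene of striatal neurons that cortex also expresses, ranged from 21.4 to 58.1 CPM, and Adora2a, an adenosine receptor gene that marks striatum, from 6.23 to 53.3 CPM. The summed striatal markers ran from 517 to 1414 CPM in wild types and from 538 to 1514 CPM in heterozygotes, and 16 of the 17 were in the table, each with reads in both groups. Total counts per animal were 9794201 to 14206585 in wild type and 8951835 to 14335406 in heterozygotes.

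Genotype was compared across all animals with sex as a term. Of the 10 receptor genes, 0 passed an adjusted p of 0.05 by edgeR, where 0.0145% of all genes tested did, and the genotypes overlapped in CPM for each receptor, where 0.123% of all genes tested had groups that did not. At an unadjusted p under 0.05 there was 1, Htr2a, where 4% of all genes tested had one, and DESeq2 with the same terms also called 0 receptors. The log2 fold change was above 0 for 5 genes and below 0 for 5, with a median log2 fold change of 0.00755, against 0.00240 over all genes tested. In whole tissue, fewer cells of a type and less RNA per cell cannot be told apart.

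Htr2a was at 27.1, 42.9 and 47.7 CPM in wild-type animals (lowest, median and highest) and at 40.6, 48.0 and 61.6 CPM in heterozygotes. The groups overlapped, although 4 of 7 heterozygotes lay above every wild-type animal and 2 wild-type animals, both of prefix 141, lay below every heterozygote. Means were 40.6 ± 7.79 and 49.7 ± 8.98 CPM (SD, n = 7 each), a log2 fold change of 0.29 (SE 0.116, 95% interval 0.0458 to 0.53) that did not pass (adjusted p = 0.979 by edgeR). When prefix replaced sex in the model as a block, Htr2a was higher in heterozygotes by 0.30 (SE 0.0658, adjusted p = 0.0458 by edgeR). It was the 1 receptor called in that fit, where 0.405% of all genes were called, 0.261% higher and 0.145% lower. With sex and set as terms 0 receptors passed by edgeR and 1 had an unadjusted p under 0.05, where 0.109% of all genes passed (0.0869% higher and 0.0217% lower) and 9.82% had such a p. The call with the block was lost in 10 of the 14 fits that left out 1 animal (wild-type replicates 1, 2, 5, 6 and 7 and heterozygous replicates 2, 3, 5, 6 and 7). Over the 14 fits the adjusted p by edgeR ran from 0.025 to 0.178 and the log2 fold change from 0.26 to 0.35. The authors' deposited table gave Htr2a a log2 fold change of 0.19 with an adjusted p of 0.277.

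By prefix, Htr2a was higher in heterozygotes in 5 of 6 prefixes. Its difference in mean log2 CPM was 0.417 in prefix 046, 0.319 in 139, 0.417 in 119 and 0.48 in 141, and it was near 0 in 047 (0.0081) and 048 (-0.0438). Over all genes tested, 2.39% were higher in heterozygotes in each of the 6 prefixes, and Htr2a was not among them. Without the 4 animals of prefix 141 the log2 fold change was 0.24. In the same genotype fit, 13 of 14 pan-neuronal markers lay above 0 (median 0.0852) and 18 of 18 astrocyte markers below 0 (median -0.19), of which 0 passed. The part of these differences in the Htr2a value was not tested.

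Htr2c, a large X-linked gene also known for high expression in choroid plexus, had the opposite sign. It was at 30.4, 46.6 and 53.3 CPM in wild-type animals and at 31.6, 38.4 and 52.6 CPM in heterozygotes. The wild-type values lay between 46.2 and 53.3 CPM in 6 of 7 animals, while 1 stood at 30.4 CPM, and 1 heterozygote at 52.6 CPM stood among the wild-type values. Means were 45.9 ± 7.26 and 39.9 ± 6.49 CPM (SD, n = 7 each), with a log2 fold change of -0.20 (SE 0.102, 95% interval -0.42 to 0.0125) and an adjusted p of 0.979 by edgeR. Its mean CPM was lower in heterozygotes in 6 of 6 prefixes. The difference in mean log2 CPM was -0.647 in prefix 047, -0.322 in 139, -0.268 in 119, -0.156 in 046 and -0.0182 in 048, and in 141 it was 0.0188, where mean CPM was 39.42 in wild types and 38.94 in heterozygotes. Over all genes tested, 2.06% had a lower mean log2 CPM in heterozygotes in each of the 6 prefixes. Htr2c, lower on that scale in 5 of 6, was not among them. Ttr, the defining transcript of choroid plexus, was at 2.07 ± 0.723 CPM in wild types and 1.09 ± 0.879 CPM in heterozygotes (SD, n = 7 each), with a log2 fold change of -0.92 that did not pass (adjusted p = 0.979 by edgeR). Of the 16 choroid plexus markers 5 were tested, 2 above and 3 below 0, and 0 passed by genotype. The 16 summed to 149.1 to 214.6 CPM in wild types and 191.9 to 231.4 CPM in heterozygotes, and 0 of them were at 0 in every animal of either genotype. Ttr made up little of these sums, and Enpp2 is also listed here as an oligodendrocyte marker. The sums are thus not specific to choroid plexus. Across the 14 animals, log2 CPM of Ttr and Htr2c had Pearson's r of 0.00453. The part of choroid plexus RNA in the Htr2c value was not tested.

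Within an animal, the ratio of Htr2a to Htr2c CPM was chosen for description after their values were seen. It was 0.559, 0.959 and 1.06 in wild-type animals (lowest, median and highest) and 0.791, 1.44 and 1.6 in heterozygotes. The groups overlapped. The mean was 0.896 ± 0.168 in wild type and 1.28 ± 0.305 in heterozygotes (SD, n = 7 each).

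**Figure D2:**
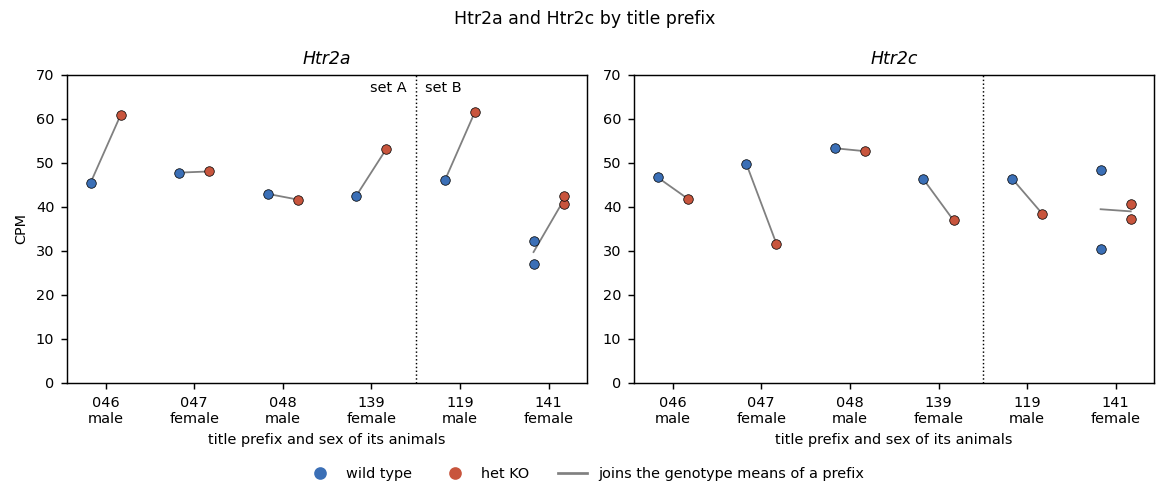
Htr2a (left) and Htr2c (right) in CPM for each animal, arranged by title prefix and the sex of its animals, with a grey line joining the wild-type and heterozygous means of a prefix. The mean CPM of Htr2a was higher in heterozygotes in 5 of 6 prefixes, and that of Htr2c lower in 6 of 6, by 39.42 against 38.94 CPM in prefix 141.

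Htr7 and Htr4, whose receptors raise cyclic AMP, differed in sign. Htr7 was at 9.54, 11.05 and 13.9 CPM in wild-type and 8.81, 13.3 and 15.4 CPM in heterozygous animals (lowest, median and highest), with 3 heterozygotes above and 1 below every wild-type animal. The log2 fold change of Htr7 was 0.20 (SE 0.11, 95% interval -0.0343 to 0.43, adjusted p = 0.979 by edgeR). Htr4 was low, with 24 to 51 reads per animal and 3.20 ± 0.605 against 2.86 ± 0.371 CPM (SD, n = 7 in either group). For Htr4 this gave -0.16 in log2 (95% interval -0.47 to 0.16).

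The receptors that lower cyclic AMP gave small values on either side of 0. Htr1a, an autoreceptor of raphe neurons that cortical pyramidal cells also carry, ran from 22.8 to 34.6 CPM among wild types and from 21.6 to 33.6 CPM among heterozygotes. Its log2 fold change was 0.028, and the 95% interval of -0.19 to 0.25 leaves room for changes up to that size. Htr5a ran from 23.3 to 44.9 CPM among wild types and from 32.3 to 43.5 CPM among heterozygotes, and 4 wild-type animals, 1 of set A and 3 of set B, lay below every heterozygote. The log2 fold change of Htr5a was 0.095 (95% interval -0.18 to 0.37).

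Htr1b, which encodes a receptor of axon terminals, ran from 3.17 to 6.41 CPM among wild types and from 4.56 to 7.26 CPM among heterozygotes, with a log2 fold change of 0.13 (95% interval -0.18 to 0.44). An antisense gene, D430036J16Rik, covers 18.04% of the Htr1b exons in GENCODE M21, and it is unknown here if reads were counted by strand, so Htr1b values are uncertain. Htr1f, the target of the lasmiditan class of migraine drugs, had -0.046 (95% interval -0.31 to 0.22). Htr1d, a target of triptans, had -0.32 with the widest interval of all, -0.87 to 0.23. Htr3a, the channel subunit, was at 4.59 ± 0.565 CPM in wild-type and 4.59 ± 1.21 CPM in heterozygous animals (SD, n = 7 each), with -0.013 (95% interval -0.33 to 0.31). Vip, a neuropeptide gene of interneurons that carry Htr3a, had 0.039 in the same fit.

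**Figure D3:**
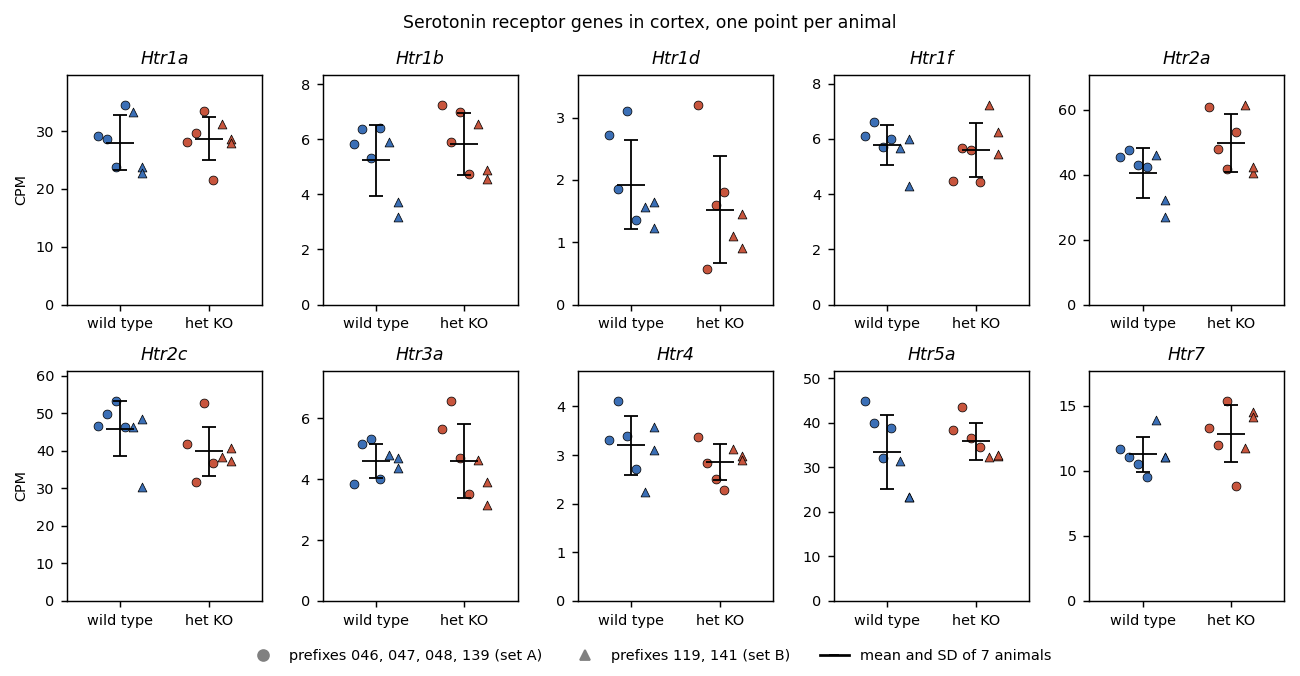
CPM of each receptor gene in every animal by genotype, with circles for set A, triangles for set B and bars for the mean and SD of 7 animals. The genotypes overlap in each panel, and for Htr2a 4 of 7 heterozygotes lie above every wild-type animal.

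The genotype difference was then taken within each set of prefixes, from 1 model over the 14 animals that held sex, set and a genotype effect per set. For set A and set B in turn, Htr2a gave log2 fold changes of 0.18 and 0.44, Htr2c -0.27 and -0.095, and Htr7 0.21 and 0.18. Htr5a gave -0.036 and 0.32, and Htr1f -0.28 and 0.24. The difference between the sets passed for 0 receptors by edgeR and by DESeq2, as it did for 0% of all genes tested by edgeR. Htr5a (0.35, SE 0.155, adjusted p = 0.287 by edgeR) and Htr1f (0.52, SE 0.233, adjusted p = 0.3 by edgeR) had an unadjusted p under 0.05, as did 14.7% of all genes tested. Without wild-type replicate 5, which leaves the male pair of set B incomplete, Htr5a passed with 0.53 (adjusted p = 0.0334 by edgeR). The share of all genes that passed in that fit was not counted, so the pass cannot be read as particular to Htr5a.

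In a fit of the 6 animals of set B alone, Htr2a (0.46, SE 0.0762, adjusted p = 0.000128 by edgeR) and Htr5a (0.33, SE 0.0889, adjusted p = 0.00976 by edgeR) were higher in heterozygotes. That is 2 of 10 receptors, where 8.88% of all genes were called higher in those animals, 7.72% lower and 16.6% in either direction, and 30% had an unadjusted p under 0.05. In the joint fit of both sets, neither Htr2a nor Htr5a passed within set B. There Htr2a had 0.44 (SE 0.173, adjusted p = 0.16 by edgeR) and Htr5a 0.32 (SE 0.119, adjusted p = 0.12 by edgeR). Among the 8 animals of set A alone, 0 receptors and 0% of all genes passed by edgeR. In that fit 4.4% of all genes had an unadjusted p under 0.05, and so did Htr2c, lower in heterozygotes. The log2 fold change of Htr2c was -0.27 (SE 0.0968, unadjusted p = 0.0122, adjusted p = 0.998 by edgeR), and 1.21% of all genes had a smaller p. Htr2a had 0.19 in set A alone and 0.18 in the joint fit.

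Neuron and glia markers of set B are given by prefix. Slc17a7 was at 1054 and 1107 CPM in the wild-type and 1192 and 1240 CPM in the heterozygous animals of prefix 141, and Gad1, which encodes the GABA-synthesising enzyme of interneurons, at 191 and 197 against 243 and 276 CPM. The astrocyte water channel gene Aqp4 went the other way, with 289 and 267 against 224 and 219 CPM. In prefix 119, the wild-type and heterozygous animals had 1399.5 and 1397.1 CPM of Slc17a7, 261.94 and 263.76 CPM of Gad1 and 211.37 and 173.51 CPM of Aqp4. Slc17a7 and Gad1 thus lay apart by genotype in prefix 141 and close together in prefix 119, which holds 1 animal of each genotype. Htr2a was 0.417 higher in the heterozygote of prefix 119 in log2 CPM. Over the whole lists, the pan-neuronal markers (14 of 15 in the table) summed to 11760 to 12710 CPM in the wild types of set B and 11740 to 12360 CPM in its heterozygotes, and the 18 astrocyte markers to 16970 to 22290 and 15620 to 17960 CPM. No marker of the astrocyte list was at 0 in either group. The part of the marker differences in the Htr5a and Htr2a values of set B was not tested.

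**Figure D4:**
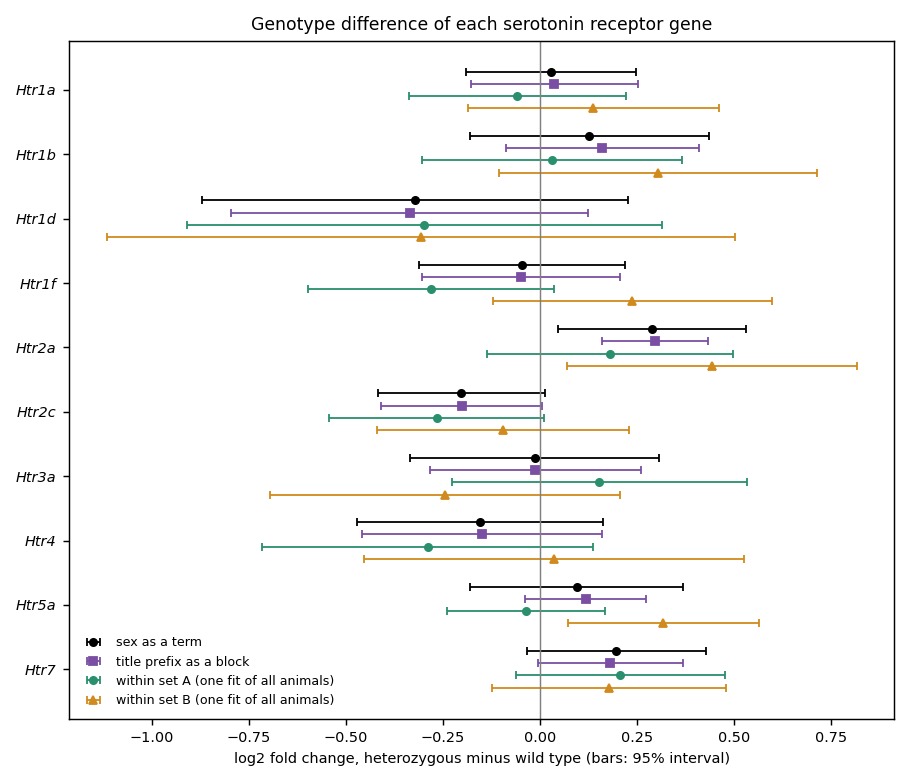
Log2 fold change of each receptor gene, heterozygous minus wild type, with 95% intervals, from the fit with sex (black), the fit with the title prefix as a block (purple) and within set A (green) and set B (orange). The interval of Htr2a lies above 0 in the fit with sex (0.0458 to 0.53), and among the other receptors in these fits that of Htr5a in set B also lies above 0.

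Levels were compared between the 6 title prefixes with genotype as a term, by an edgeR F test with 5 degrees of freedom. Htr2a, Htr5a, Htr1b and Htr1d passed, 4 of 10, where 33.2% of all genes tested did. The adjusted p was 0.00059 for Htr2a, 0.00315 for Htr5a, 0.0382 for Htr1d and 0.0440 for Htr1b by edgeR. DESeq2 called Htr2a and Htr5a but not Htr1b (adjusted p = 0.107), and gave Htr1d no adjusted p. The edgeR call was lost in 9 of 14 fits without 1 animal for Htr1b (without wild-type replicates 3, 5, 6 or 7 or heterozygous replicates 1, 2, 5, 6 or 7, adjusted p up to 0.16 by edgeR). For Htr1d it was lost in 6 of 14 (without wild-type replicates 4, 5, 6 or 7 or heterozygous replicates 2 or 5, adjusted p up to 0.222 by edgeR). It was kept in 14 of 14 for Htr2a and for Htr5a.

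Htr2a averaged 53.2 CPM in prefix 046, 47.9 in 047, 42.3 in 048, 47.8 in 139, 53.8 in 119 and 35.6 in 141. Prefixes 119 and 141 of set B thus stood at opposite ends for this gene. Htr5a averaged 41.6 CPM in prefix 046, 41.7 in 047, 34.3 in 048, 36.7 in 139, 31.8 in 119 and 27.97 in 141, so both prefixes of set B were the lowest. Htr1b was at 4.08 CPM in prefix 141 and between 5.57 and 6.54 CPM in the others. Htr1d was highest in prefixes 046 (2.97 CPM) and 048 (2.35 CPM), both male, and between 1.21 and 1.58 CPM elsewhere. The male prefix 119 was at 1.33 CPM, below the female prefix 139 at 1.58 CPM.

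Against set A, with genotype and sex as terms, Htr5a was lower in set B, with a log2 difference of -0.39 (SE 0.0881) and an adjusted p of 0.00136 by edgeR. It lay between 32.1 and 44.9 CPM in set A and between 23.3 and 32.7 CPM in set B, overlapping at the edge. It was the 1 receptor of 10 called, where 38.8% of all genes tested were called, 19.6% lower and 19.1% higher in set B. Leaving out 1 animal gave 1 to 4 receptors, with 4 without heterozygous replicate 5 and 2 without wild-type replicate 4 or heterozygous replicates 1, 3 or 4. Htr5a passed in 14 of 14 of these fits. The share of all genes called in them was not counted, so the changed numbers cannot be read as particular to the receptors. Htr1b had -0.30, Htr1d -0.49 and Htr7 0.18, none of which passed. Of the 10 receptors 2 lay above 0, where 49.8% of all genes did. The median over the receptors was -0.139, against -0.00126 over all genes tested. In the same comparison Slc17a7 fell (-0.34) and Gad1 fell (-0.33). Of 14 pan-neuronal markers, 9 passed as lower and 1 as higher by edgeR, with 12 below 0 and 2 above. Of 18 astrocyte markers, 17 passed as higher by edgeR, and 18 lay above 0. Pan-neuronal markers summed to 11760 to 12710 CPM in set B wild types and 11820 to 12380 CPM in set A wild types, and astrocyte markers to 16970 to 22290 and 12210 to 13410 CPM. What part these had in the receptor values was not tested.

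**Figure D5:**
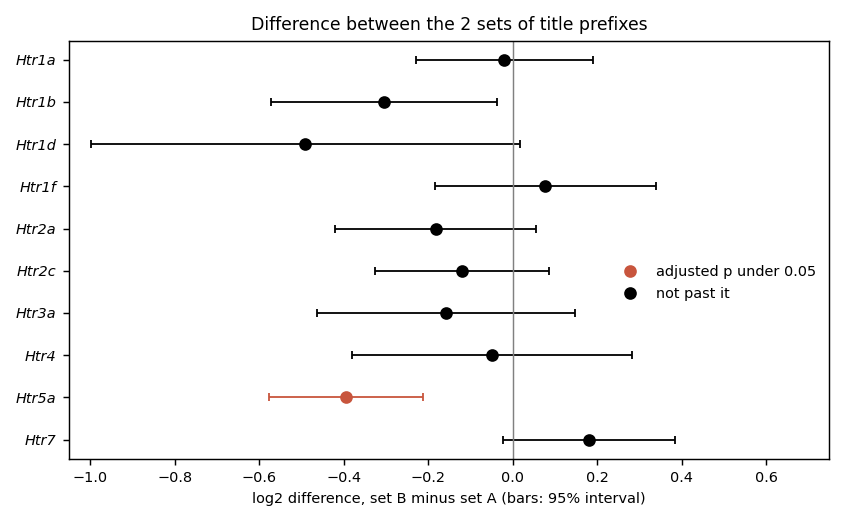
Log2 difference of each receptor gene between set B (prefixes 119 and 141) and set A, with 95% intervals, and the gene past an adjusted p of 0.05 in red. Htr5a lies at -0.39, and 8 of the 10 receptors have a value below 0. The sets were known from an earlier look at these data.

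Females and males were compared with genotype as a term, and 0 receptors passed by edgeR and by DESeq2, where 0.00724% of all genes tested passed by edgeR and 6.98% had an unadjusted p under 0.05. Htr1d (-0.68, 95% interval -1.23 to -0.13), Htr1b (-0.33) and Htr2a (-0.25) had an unadjusted p under 0.05, all lower in females. Each prefix holds 1 sex, and prefix 141 supplies 4 of the 8 females. The genotype change differed between the sexes for 0 receptors by edgeR and by DESeq2, with 1.04% of all genes tested at an unadjusted p under 0.05, and for Htr2a it was 0.29 in females and 0.29 in males.

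The rest of the serotonin pathway was described from lists of genes. Of the other receptor genes, Htr6 had 29 to 71 and Htr5b 6 to 25 reads per animal, while Htr2b had 11 and Htr3b 2 reads over all animals. Htr6 (-0.070) and Htr5b (-0.25) did not pass by genotype. Of genes of serotonin synthesis, transport and breakdown, 11 of 16 were tested and 0 passed by genotype, with 5 above 0 and a median of -0.0626. Among G protein subunits and effectors 0 of 40 passed, with a median of 0.0126, and among regulators of the receptors 0 of 24, with a median of -0.0235. With the block these counts were also 0 by edgeR.

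Calls between the sets, which were known from an earlier look at these data, are given as a description. Of the 11 tested genes of synthesis and breakdown, 6 passed by edgeR, 5 higher and 1 lower in set B. Of all genes tested 38.8% passed, 19.1% higher and 19.6% lower. Maob, a monoamine oxidase gene expressed by astrocytes, rose by 0.63 and Maoa, the oxidase of monoamine neurons, by 0.27. Pts (0.68) and Qdpr (0.35), which make and recycle the tetrahydrobiopterin cofactor of tryptophan hydroxylase, and Ddc (0.56), the decarboxylase, rose, and Spr (-0.25), another cofactor enzyme, fell. Among G protein subunits and effectors, 7 of 40 passed as higher and 12 as lower, beside the same 19.1% and 19.6% of all genes tested. Rapgef4, a cyclic AMP sensor, rose by 0.58. Gnb2 (-0.39), a G protein beta subunit, Adcy8 (-0.38) and Adcy3 (-0.32), adenylyl cyclases, Prkaca (-0.33), a catalytic subunit of protein kinase A, and Gnaz (-0.34), an inhibitory alpha subunit, fell. Among regulators, 9 of 24 passed as higher and 5 as lower, against 19.1% and 19.6% of all genes tested. Arrb1, an arrestin (0.28), Slc9a3r1, a scaffold (0.39), and Snx27, a sorting nexin (0.21), rose, while Cc2d1a, a repressor of Htr1a (-0.28), Mpp3 (-0.27) and Adar, an RNA editing enzyme (-0.37), fell.

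Likeness between receptors was measured as Pearson's r of log2 CPM over the 14 animals, which share libraries, prefixes and depth. The most alike receptor pairs were Htr1b with Htr2a (0.785), Htr1b with Htr5a (0.78), Htr1a with Htr1b (0.711) and Htr2a with Htr5a (0.65). With genotype, sex and set removed they stood at 0.613, 0.664, 0.826 and 0.495. The least alike were Htr1a and Htr1d, at -0.236, or -0.572 with those terms removed. Of the neuron markers, Slc17a7 had r of 0.733 with Htr2a and 0.857 with Htr5a (0.812 and 0.674 with the terms removed), and Gad1 had 0.722 and 0.954 (0.55 and 0.895). Of the striatal markers, Drd1a had r of 0.693 with Htr1d and 0.561 with Htr2a (0.555 and 0.538 with the terms removed), and Adora2a had 0.766 and 0.448 (0.649 and 0.335). Tcf7l2, a thalamic marker, had -0.839 with Htr5a and -0.573 with Htr2a (-0.581 and -0.51). The part of cell makeup or of RNA from other regions in these receptors was not tested.

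Among all genes of at least 5 CPM, the closest to Htr2a were Sec24c (0.918) and Sdk2 (0.913), to Htr2c Lmo3 (0.909) and Lypd1 (0.898), and to Htr5a Polr3a (0.981) and Slc35e1 (0.976). The closest to Htr1a were Gm10828 (0.889) and Tnfaip8l3 (0.879), to Htr1b 3110047P20Rik (0.95) and Zfp828 (0.95), to Htr1d Bcam (0.902) and Tmub2 (0.869), and to Htr1f Tnks2 (0.822) and Nckap1 (0.812). Htr3a was closest to Limk1 (0.78) and Upp2 (0.751), Htr4 to Fancm (0.864) and Csmd3 (0.809), and Htr7 to Mettl14 (0.852) and BC031781 (0.794). With genotype, sex and set removed, the closest were Syvn1 (0.952) and Otub1 (0.935) for Htr2a, C030048B08Rik (0.891) and Arhgap6 (0.882) for Htr2c, and Kcnq5 (0.983) and Slc24a2 (0.971) for Htr5a. They were Tnfaip8l3 (0.968) and Tlk2 (0.918) for Htr1a, Atpaf1 (0.954) and Ift172 (0.929) for Htr1b, Itpr3 (0.887) and Nucb1 (0.878) for Htr1d, and Ythdf3 (0.918) and Tnks2 (0.904) for Htr1f. For Htr3a they were Upp2 (0.867) and Kif16b (0.852), for Htr4 Hspg2 (0.87) and Fancm (0.864), and for Htr7 Ptgs1 (0.883) and Tet1 (0.88). Each is the highest of the values for all such genes and is given as a description.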

How the data were processed

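The authors deposited 1 table of whole-number read counts per gene symbol for 14 animals, with no normalization. The same table holds the authors' comparison of genotypes, deposited as a log2 fold change, a test score, and a raw and adjusted p-value, under headers that name exons and DESeq. Per the submitters' processing notes, Trim Galore, Bowtie, STAR, bedtools and the mm9 build were used, and versions and counting rules are not given in the sources used here. Per the labels' protocols, the library kit was directional and reads were single-end.

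Tests were run in edgeR 4.0.16, under R 4.3.3 with limma 3.58.1, using filterByExpr by genotype, TMM factors, robust quasi-likelihood F tests, and Benjamini-Hochberg adjustment over all 13815 genes at a threshold of 0.05. The tested genes held 99.9% of counts, and 14540 genes had no read. CPM used TMM-scaled library sizes. Standard errors came from the fold change and F, and intervals are 95%. DESeq2 1.42.0 was an alternative. The procedure was tested on simulated data. Prefix differences used log2(CPM + 0.5) and correlations log2 CPM with a prior count of 2. Replicates are separate animals, numbered in series order within genotype.

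The 9 pairs of wild-type and heterozygous animals of 1 title prefix had deviations from their genotype means that correlated at 0.2 to 0.517 across genes, so the prefix was used as a block beside the fit with sex. With sex and set also removed, these correlations were -0.328 to -0.00545. Pairs of different prefixes were not compared, so these values do not show that the prefix adds to sex and set. Members, lists and sets were chosen with earlier results of these data known. All receptors are named. Of the other pathway lists, up to 6 genes per list called by prefix or set are named by smallest p, and for likeness the 2 genes of highest Pearson's r per receptor. Marker genes named are those that define each tissue or cell type, and Aqp4 was added after its values were seen.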

Additional observations from a re-analysis of the deposited data

Results flagged for a closer look

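In 20 groups of 7 animals (10 receptors in each genotype), a lone extreme animal was looked for with Dixon's test at 95%, which chance meets in about 1 of 20 groups. Htr2c in wild-type replicate 7, a female of prefix 141, was at 30.4 CPM, and the nearest other wild-type animal was at 46.2 CPM. Htr1f in wild-type replicate 6, also of prefix 141, was at 4.29 CPM, and the nearest other was at 5.68 CPM.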

How the results depend on the processing

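Depth limits Htr1d (5 to 38 reads per animal) most. By genotype, 0 receptors were called with RLE factors, no filter, DESeq2, genotype alone, sex and set as terms, set A alone, or without any 1 animal or prefix. The block was the title prefix, since replicate numbers here only name animals and pair none. It called 1 (Htr2a) by genotype, and set B alone called 2. Over all genes, calls by genotype went from 2 to 11 with DESeq2, 56 with the block, 15 with sex and set, 0 in set A, 2304 in set B, and 1 to 4 without 1 animal. Leaving out whole prefixes, and single animals under the block, was added after seeing the data; calls were 1 without 046, 1 without 048 and 0 without 139. Receptor calls by prefix went from 4 to 2 with DESeq2 and 2 to 5 without 1 animal, and by set from 1 to 2 with no filter and 1 to 4 without 1 animal. For the difference in genotype change between sets they were 0 to 1 without 1 animal. Calls over all genes were not counted in these other fits by prefix, by set and for the difference between sets. The cause was not tested.

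Signs of log2 fold changes turned for values that had passed no test. In set A alone Htr1a had -0.046, Htr3a 0.16 and Htr5a -0.034, and in set B alone Htr1f had 0.25 and Htr4 0.037. Htr1f had 0.012 without prefix 046 and 0.0092 without 139. Htr1a had -0.045 without 048 and -0.058 without 141. Htr3a had 0.017 without 048, 0.0084 without 139 and 0.12 without 141, and Htr5a -0.017 without 141. For the set difference in genotype change, Htr1d had 0.0027 with no filter.

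Leaving out 1 animal gave genotype values of -0.023 to 0.10 for Htr1a, -0.12 to 0.010 for Htr1f and -0.13 to 0.058 for Htr3a. Set values were -0.088 to 0.064 for Htr1a, -0.018 to 0.15 for Htr1f and -0.11 to 0.094 for Htr4. Sex values were -0.11 to 0.040 for Htr1f and -0.060 to 0.095 for Htr4. The set difference in genotype change was -0.35 to 0.33 for Htr1d and -0.16 to 0.16 for Htr7.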
